A study of Mus musculus with 9 samples.

Results

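The interferon-stimulated genes described here were a list of 40 gene symbols, chosen with earlier results of these data known, and each matched 1 row among the 23955 rows of the count table. The table covers RNA-seq of 9 mouse gut organoid samples, 3 in each of 3 groups, an organoid being a small piece of epithelium kept growing in gel. All 9 samples came from APCmin/+ mice, which carry 1 mutated copy of the Apc gene and form gut adenomas. The MIN group came from normal-appearing tissue beside the tumors, the adenoma group from the adenomas, and the sulindac group from adenomas exposed to sulindac, a non-steroidal anti-inflammatory drug (NSAID). Every culture received noggin, EGF, bFGF, R-spondin1 and B27. The dose and duration of sulindac, and the age of the mice, are not given in the sources used here, nor is whether the samples of a group came from separate mice, so p-values measure the spread between these samples only.

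Interferons are secreted proteins that cells release after sensing viral or displaced nucleic acid. They bind receptors linked to the kinases JAK1 and TYK2, which activate STAT2 and other transcription factors. A complex that holds STAT2 and IRF9 binds a DNA element, the interferon-stimulated response element (ISRE), in front of its target genes. The targets include the RNA sensors and the STAT and IRF proteins themselves, so the pathway feeds back on its own parts. In gut epithelium the response is best known as a defense against enteric viruses.

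Promoter windows from 250 bases before to 50 after the start site were taken from RefSeq (GRCm38.p6), which held 30 of the 40 genes. Mx1, Zbp1, Mx2, Rtp4, Oas2, Parp9, Dhx58, Parp14, Usp18 and Oas1b had no entry. The ISRE core, searched as GAAA, any 2 bases, then GAAA on both strands, was in the windows of 13 of the 30 genes (43.3%), against 3.99% of the 27025 genes in the RefSeq table. The shorter GAS letters, TTC, any 3 bases, then GAA, which are the same on both strands, were in the windows of 7 of the 30 (23.3%), against 9.55% of all genes. The core was found in 7 of 14 genes that passed the test in some comparison and in 6 of 16 that did not. Stretches of 6 genes that the results turn on are shown because they differ in where the core lies, with the core in capitals. They are read 5′ to 3′ on the strand of the gene. Ddx58 lies at chr4:40239796-40239895 on the minus strand, Ifih1 at chr2:62646206-62646235 on the minus strand, Bst2 at chr8:71537473-71537622 on the minus strand, Rsad2 at chr12:26456453-26456602 on the minus strand, Ifit1 at chr19:34640739-34640888 on the plus strand and Oas1a at chr5:120907526-120907625 on the minus strand.
Ddx58: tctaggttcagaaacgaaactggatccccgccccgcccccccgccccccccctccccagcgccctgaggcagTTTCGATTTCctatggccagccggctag
Ifih1: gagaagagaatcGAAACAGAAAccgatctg
Bst2: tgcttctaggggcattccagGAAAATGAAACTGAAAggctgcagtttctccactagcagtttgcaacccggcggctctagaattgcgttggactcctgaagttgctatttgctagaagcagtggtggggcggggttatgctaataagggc
Rsad2: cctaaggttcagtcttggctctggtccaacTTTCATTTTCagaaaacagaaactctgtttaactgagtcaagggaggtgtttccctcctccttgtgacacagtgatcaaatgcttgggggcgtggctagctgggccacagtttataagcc
Ifit1: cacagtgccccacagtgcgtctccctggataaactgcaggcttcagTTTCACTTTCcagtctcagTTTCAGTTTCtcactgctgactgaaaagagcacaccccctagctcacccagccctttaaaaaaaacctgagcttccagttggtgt
Oas1a: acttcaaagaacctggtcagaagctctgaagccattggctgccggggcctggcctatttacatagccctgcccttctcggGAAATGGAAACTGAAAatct
In Ddx58 and Ifih1 the core began 2 and 32 bases after the start site, inside the transcript. In Oas1a overlapping cores began 20 and 14 bases before it, in Bst2 130 and 124 bases before it. Rsad2 had 1 core, 120 bases before the start, and Ifit1 had 2, at 104 and 85 bases. Isg15 held 3 overlapping cores. The windows of Cmpk2, Oasl1, Ifit2, Samd9l, Xaf1, Lgals3bp and Dtx3l held none.

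Total counts per sample ranged from 30881206 to 48412477. Levels are given as CPM, the counts scaled to a common total, on the TMM-normalized library size, and 3 counts, the floor below which a level was not read, correspond to 0.0641 to 0.10 CPM, which covers counting error only. Of the 40 genes, 31 had at least 10 counts in every sample. Per kb of merged exon length, a scale on which genes can be compared, the mean level over the 9 samples ran from 0.0153 CPM per kb for Sp100 to 80.0 for Lgals3bp, a secreted glycoprotein that binds galectins. Bst2, which tethers budding virus to the cell surface, followed at 34.5 and Trim25, a ubiquitin ligase of the RNA sensor RIG-I, at 21.1. The classical antiviral genes Mx1 and Isg15 stood at 0.159 and 1.24 CPM per kb. The summed level of the 40 genes was 839 to 842 CPM in MIN, 738 to 848 in adenoma and 692 to 796 in sulindac. The sums of adenoma and sulindac overlapped, and Lgals3bp alone made up 146 to 307 CPM of each.

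The samples of a group were not alike in these genes. Adenoma replicate 2 was the lowest of the 3 adenoma samples in 29 of the 37 members tested between adenoma and MIN (78.4%), against 33.2% of all 13744 genes tested. MIN replicate 2 was the lowest MIN sample in 20 of the 37 (54.1%, against 27.8% of all genes), and sulindac replicate 3 the lowest sulindac sample in 19 (51.4%, against 34.0%). The total of adenoma replicate 2, 32632837 counts, was close to the 32663882 of replicate 1.

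**Figure D1:**
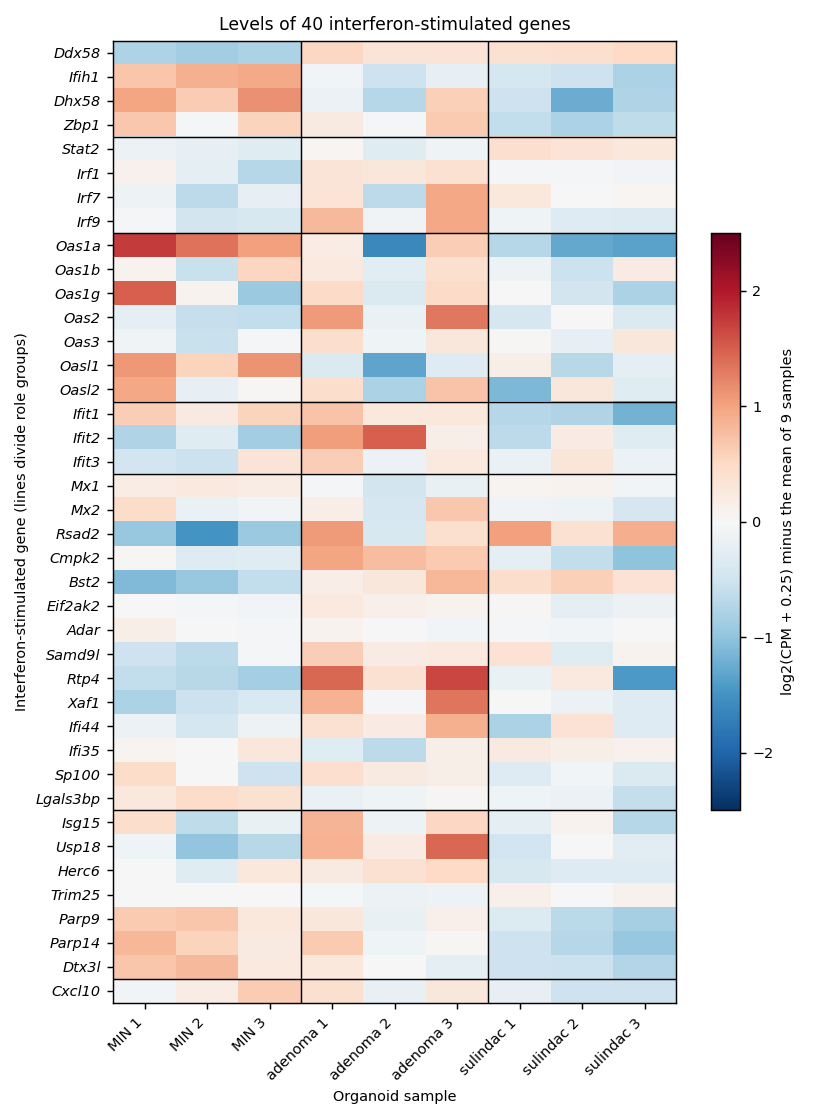
Level of each of the 40 genes (rows, grouped by role from sensors at the top to the chemokine Cxcl10 at the bottom) in each of the 9 samples (columns), as log2(CPM + 0.25) minus the mean of the 9 samples, red above and blue below that mean. Ddx58, Bst2 and Rsad2 are low in the MIN samples, Ifih1, Oas1a and Oasl1 are high there, and adenoma replicate 2 is paler or bluer than the other adenoma samples for most genes.

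The first comparison, adenoma against MIN, asked how these genes differ between the tumor epithelium and its neighboring epithelium. Adenoma organoids had higher Rtp4, Rsad2, Xaf1, Ifit2, Bst2, Ddx58, Cmpk2 and Samd9l and lower Oasl1, Ifih1 and Lgals3bp, of which Xaf1, Samd9l and Lgals3bp did not pass when the samples were paired by replicate number. By edgeR's quasi-likelihood test without pairing, at a false discovery rate (FDR) of 1% over all genes, 8 of the 37 members tested were higher in adenoma (21.6%, against 18.5% of all genes tested) and 3 were lower (8.11%, against 20.1%). The share that was higher lay close to that of all genes. At an unadjusted p below 0.05, 12 were higher and 7 lower (all genes, 28.3% and 29.6%), and DESeq2 at an FDR of 1% gave 10 higher and 5 lower (all genes, 21.5% and 23.6%). The median log2 difference of the 37 was 0.10, and that of all genes tested was -0.01. Oas2, Mx2 and Sp100 had too few counts to be tested. With replicate numbers entered as a block, 7 were higher and 3 lower (of all 13744 genes tested, 2531 and 2733). Samd9l, Xaf1 and Lgals3bp lost their call, and Usp18 (higher) and Dtx3l (lower) gained one. Usp18 passed the count filter through the adenoma samples, where it was high. The count of higher members was 4 without MIN replicate 2 or without adenoma replicate 1, and 5 without MIN replicate 3 or without adenoma replicate 3. It was 9 without adenoma replicate 2, where 2 were lower. Those 9 include Oas2 and Usp18, which passed the count filter through the adenoma samples, where they were high. Shares of all genes in these fits are not given here, so these counts are not read as results about the members.

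The second comparison, sulindac against untreated adenoma, asked how the drug moved them. Ifit1 and Cmpk2 were lower after sulindac (2 of 35 members tested, 5.71%, against 9.10% of all genes tested), and 0 members were higher, against 8.32% of all genes. At an unadjusted p below 0.05, edgeR gave 1 higher and 14 lower of the 35 (all genes, 20.7% and 24.0%), and DESeq2 at an FDR of 1% gave 1 higher (Stat2) and 9 lower (all genes, 13.7% and 13.6%). Of the 35, 27 had a log2 difference below 0, and their median was -0.38, against -0.01 for all genes tested. Scaled by library size alone the median of all genes was -0.18 and that of the members -0.54. In that fit 6 members were lower, and so were 1983 of all genes, against 1179 of all genes under TMM. Of all genes called, 23.3% were higher, against 47.8% under TMM. The count of lower members was 0 without adenoma replicate 1, without sulindac replicate 2 or without sulindac replicate 3, and 1 without sulindac replicate 1. It was 3 without adenoma replicate 2 (Irf9, Oas1a and Oas2) and 4 without adenoma replicate 3. Oas2 passed the count filter there through the adenoma samples, where it was high, so its call is not read. These counts stand without shares of all genes in the same fits and are not read as results about the members. Zbp1, Oas2, Mx2, Sp100 and Cxcl10 were not tested here.

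The third comparison, sulindac-treated adenoma against MIN, shares its samples with the other comparisons and is given beside them. In it Ddx58, Stat2, Rsad2 and Bst2 were higher (4 of 34 members tested, 11.8%, against 23.0% of all genes tested), and Ifih1, Dhx58, Oas1a, Oasl1, Ifit1, Lgals3bp, Parp9, Parp14 and Dtx3l were lower (9 of 34, 26.5%, against 26.8%). At an unadjusted p below 0.05, 5 were higher and 9 lower (all genes, 31.4% and 35.2%), and DESeq2 gave 4 and 9 (all genes, 25.3% and 29.3%). The median of the 34 was -0.08, against -0.03 for all genes tested. In all, 18 of the 40 genes passed the test in at least 1 comparison. These were 48.6% of the 37 that could be tested in any, against 59.3% of the 13882 genes tested in any.

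**Figure D2:**
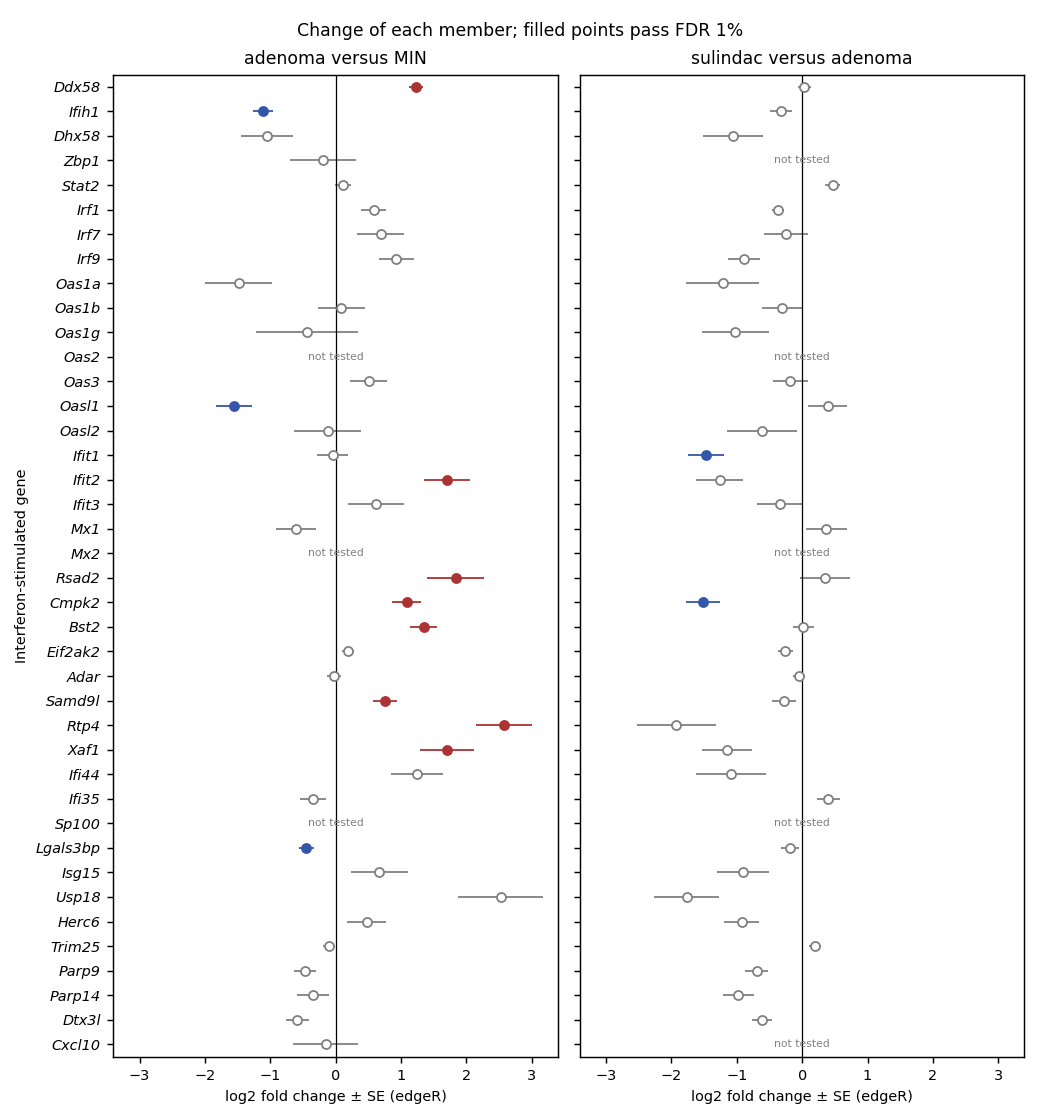
Log2 fold change with its SE (edgeR, 3 samples against 3) of each of the 40 genes for adenoma versus MIN (left) and sulindac versus adenoma (right). Filled points pass an FDR of 1% (red higher, blue lower). On the left 8 points are filled red and 3 blue, and on the right only Ifit1 and Cmpk2 are filled.

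Among the sensors, the 2 main cytoplasmic receptors of double-stranded RNA moved in opposite directions. Ddx58, which encodes RIG-I, stood at 15.2, 14.1 and 14.9 CPM in MIN replicates 1, 2 and 3, at 37.6, 32.7 and 33.3 in adenoma and at 34.0, 34.6 and 36.9 in sulindac. The MIN samples lay below all 6 others, and adenoma was 2.34-fold higher (log2 difference 1.23 ± 0.11 SE, adjusted p = 3.31e-05) than MIN, while sulindac was 2.38-fold higher (log2 difference 1.25 ± 0.09 SE, adjusted p = 6.92e-06) than MIN. Between sulindac and adenoma the log2 difference was 0.03 ± 0.10 (SE). Ifih1, which encodes MDA5, stood at 24.5, 28.1 and 29.5 CPM in MIN replicates 1, 2 and 3, at 14.5, 10.5 and 13.1 in adenoma and at 11.1, 10.5 and 8.70 in sulindac. Here the MIN samples lay above all 6 others, and adenoma was 2.15-fold lower (log2 difference -1.11 ± 0.15 SE, adjusted p = 0.000354) and sulindac 2.72-fold lower (log2 difference -1.44 ± 0.13 SE, adjusted p = 2.25e-05). Neither sensor lost its call in either comparison when any single sample was left out.

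Because both genes were counted in the same libraries, their ratio does not depend on scaling. Chosen after its values were seen, the ratio of Ddx58 to Ifih1 counts was 0.619, 0.504 and 0.506 in MIN, 2.59, 3.11 and 2.55 in adenoma and 3.08, 3.28 and 4.24 in sulindac. The MIN samples were separate from both other groups (log2 difference 2.34 for adenoma and 2.69 for sulindac). Since the ratio was chosen for its values, no test of it is given. RIG-I and MDA5 are known to recognize different kinds of double-stranded RNA.

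Dhx58 encodes LGP2, a sensor of the same family that lacks signaling domains and modulates the others. It stood at 2.65, 2.01 and 2.97 CPM in MIN replicates 1, 2 and 3, at 1.07, 0.643 and 1.97 in adenoma and at 0.767, 0.367 and 0.611 in sulindac. Sulindac was 4.37-fold lower (log2 difference -2.13 ± 0.33 SE, adjusted p = 0.000565) than MIN, and adenoma overlapped sulindac (replicate 2 was below the highest sulindac sample), with a log2 difference from MIN of -1.05 ± 0.40 (SE) that missed the threshold (adjusted p = 0.0538). Zbp1, a sensor of Z-form nucleic acid, had 18, 8 and 14 counts in MIN, 9, 6 and 15 in adenoma and 1, 0 and 1 in sulindac. Every sulindac library was below the floor of 3 counts. The gene did not pass the count filter for the comparisons with sulindac. A fit of all 9 samples lets it in through the MIN and adenoma samples, where it was higher. That fit and the fit without the filter are therefore not read for this gene.

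**Figure D3:**
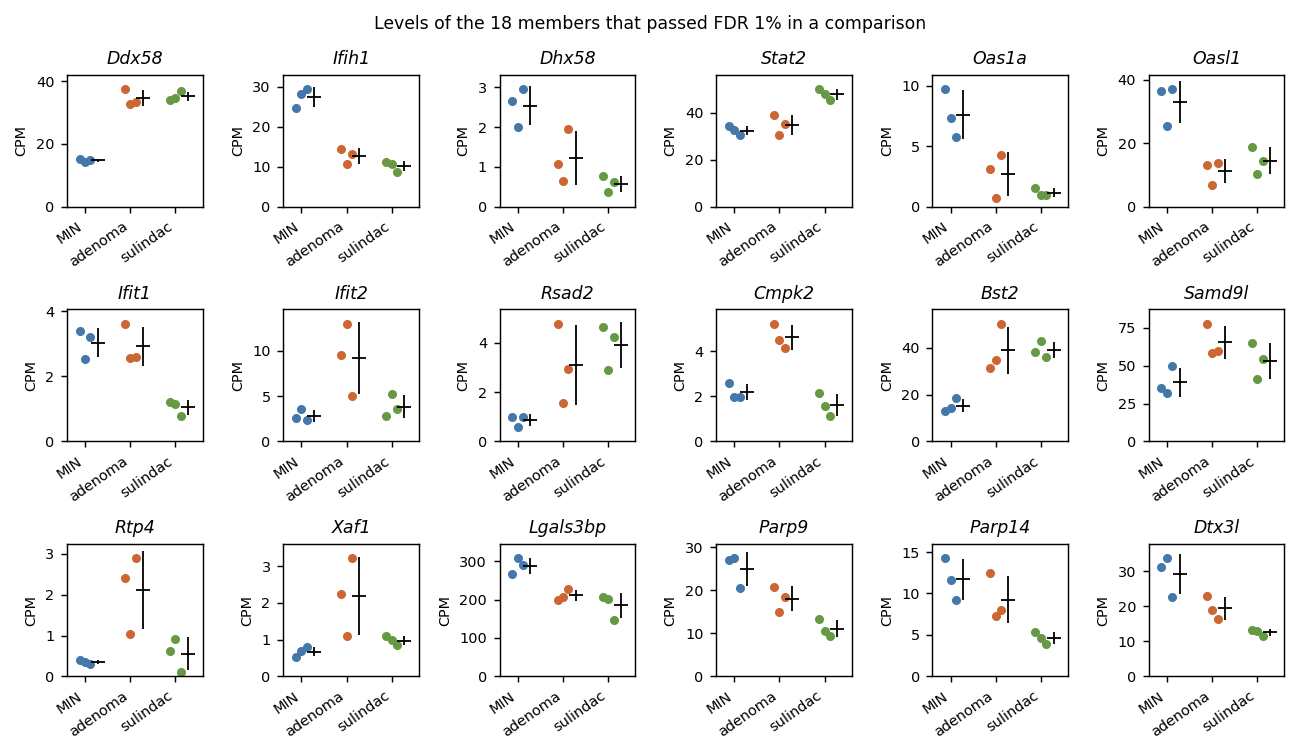
Level in CPM (vertical axis from 0, scaled per gene) of the 18 genes that passed an FDR of 1% in at least 1 comparison, 1 panel a gene. Points are samples of MIN, adenoma and sulindac in replicate order, and bars are the mean ± SD of 3. Ddx58 and Bst2 stay high after sulindac, while Ifit1 and Cmpk2 fall below every adenoma sample.

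Of the 4 interferon signal transducers and transcription factors, 0 passed the edgeR test between adenoma and MIN or between sulindac and adenoma. At an unadjusted p below 0.05, 2 were higher in adenoma than in MIN (all genes, 28.3%). After sulindac 1 was higher and 2 were lower (all genes, 20.7% and 24.0%). DESeq2 at an FDR of 1% gave 1 higher in the first comparison (all genes, 21.5%) and 1 higher and 2 lower in the second (all genes, 13.7% and 13.6%). Stat2 stood at 34.3, 32.6 and 30.5 CPM in MIN replicates 1, 2 and 3, at 39.0, 30.5 and 35.1 in adenoma and at 50.3, 47.9 and 45.6 in sulindac. The sulindac samples were above all 6 others and sulindac was 1.47-fold higher (log2 difference 0.56 ± 0.09 SE, adjusted p = 0.000652) than MIN, while against adenoma the adjusted p was 0.0149. Irf9, which carries the DNA contact of the STAT complex, had a mean of 9.92 ± 1.64 CPM (SD, n = 3) in MIN, 18.9 ± 6.61 in adenoma and 10.1 ± 0.943 in sulindac. Irf9 adenoma replicate 2, at 11.4 CPM, lay within the MIN range of 8.78 to 11.8. With all samples Irf9 did not pass against MIN by edgeR (adjusted p = 0.0184) and passed by DESeq2 (adjusted p = 0.00257). Irf7, which drives later interferon output, showed the same split, with 19.6 and 30.5 CPM in adenoma replicates 1 and 3 and 9.72 in replicate 2. With all samples it did not pass against MIN by edgeR (adjusted p = 0.14) or DESeq2 (adjusted p = 0.0926). Irf1 was 23.5 ± 6.61 CPM in MIN, 35.2 ± 1.23 in adenoma and 27.0 ± 0.346 in sulindac, and neither step passed with all samples (adjusted p = 0.0309 and 0.0139).

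The oligoadenylate synthetases make short adenylate chains that switch on RNase L, which degrades RNA. Of 6 family members tested between adenoma and MIN, 1 was lower (16.7%, against 20.1% of all genes). At an unadjusted p below 0.05, 2 were lower (all genes, 29.6%), and so were 2 by DESeq2 (all genes, 23.6%), which added Oas1a (adjusted p = 0.00564). Between sulindac and adenoma 0 of 6 passed the edgeR test, 0 at an unadjusted p below 0.05 and 0 by DESeq2. The gene that was lower, Oasl1, encodes a relative without synthetase activity. It stood at 36.3, 25.3 and 37.1 CPM in MIN replicates 1, 2 and 3, at 13.3, 6.70 and 13.6 in adenoma and at 18.8, 10.4 and 14.4 in sulindac. All MIN samples were above the other samples, adenoma was 2.93-fold lower (log2 difference -1.55 ± 0.27 SE, adjusted p = 0.00145) than MIN, and sulindac was 2.27-fold lower (log2 difference -1.18 ± 0.23 SE, adjusted p = 0.00243) than MIN, a call lost without sulindac replicate 3 (adjusted p = 0.0138). Oas1a stood at 9.75, 7.33 and 5.77 CPM in MIN replicates 1, 2 and 3, at 3.12, 0.726 and 4.31 in adenoma and at 1.57, 0.978 and 0.931 in sulindac. Sulindac was 6.61-fold lower (log2 difference -2.72 ± 0.30 SE, adjusted p = 6.53e-05) than MIN. Adenoma replicate 2 was below every sulindac sample, so the adenoma and sulindac groups overlapped. Of the 50-base stretches of Oas1a, 57.6% also occur in other genes, mainly its neighbor Oas1g, so the counting could have split reads between them. Oas1b, Oas1g, Oas3 and Oasl2 passed in no comparison, with group means between 0.274 and 2.19 CPM. Oas2 had 6, 3 and 2 counts in MIN, 26, 6 and 32 in adenoma and 3, 7 and 4 in sulindac.

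The IFIT proteins bind foreign RNA and block its translation. Ifit1 stood at 3.38, 2.52 and 3.21 CPM in MIN replicates 1, 2 and 3, at 3.62, 2.57 and 2.6 in adenoma and at 1.20, 1.16 and 0.785 in sulindac. MIN and adenoma overlapped, and every sulindac sample was below both. Sulindac was 2.78-fold lower (log2 difference -1.48 ± 0.28 SE, adjusted p = 0.00465) than adenoma and 2.90-fold lower (log2 difference -1.54 ± 0.27 SE, adjusted p = 0.000996) than MIN. The call against adenoma was lost when adenoma replicate 1 or 2 or any sulindac sample was left out, at adjusted p from 0.0113 to 0.0223 with a log2 difference from -1.59 to -1.29. Ifit2 stood at 2.55, 3.59 and 2.34 CPM in MIN replicates 1, 2 and 3, at 9.57, 13.0 and 5.03 in adenoma and at 2.77, 5.20 and 3.58 in sulindac. The adenoma samples were above MIN, with the highest value in adenoma replicate 2, the sample that was lowest for most members. Adenoma was 3.25-fold higher (log2 difference 1.70 ± 0.35 SE, adjusted p = 0.00336) than MIN, a call lost without MIN replicate 1 or MIN replicate 3 (adjusted p = 0.0141 in both) or adenoma replicate 2 (adjusted p = 0.011). After sulindac Ifit2 overlapped both groups and did not pass against adenoma (log2 difference -1.26 ± 0.36 (SE), adjusted p = 0.0268). Ifit3 was 0.385 to 1.15 CPM in all samples and passed in no comparison, with 51.2% of its 50-base stretches shared, mainly with Ifit3b.

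Of 12 other antiviral effectors tested between adenoma and MIN, 6 were higher in adenoma (50.0%, against 18.5% of all genes), 4 under the replicate block, and 1 was lower (8.33%, against 20.1%). This group is 1 part of a list chosen with earlier results of these data known. Over all 37 members tested the share that was higher was 21.6%, so the share of this part is not read as a result. Rsad2 encodes viperin, which makes a chain-terminating nucleotide, and Cmpk2, its neighbor on the chromosome in RefSeq, a nucleotide kinase. Rsad2 stood at 0.997, 0.598 and 1.01 CPM in MIN replicates 1, 2 and 3, at 4.77, 1.56 and 2.92 in adenoma and at 4.63, 2.87 and 4.25 in sulindac. All 6 adenoma and sulindac samples were above MIN, and the adenoma and sulindac samples overlapped. Adenoma was 3.57-fold higher (log2 difference 1.84 ± 0.43 SE, adjusted p = 0.00688) than MIN and sulindac 4.52-fold higher (log2 difference 2.18 ± 0.31 SE, adjusted p = 0.000312) than MIN. The adenoma call was lost without adenoma replicate 1 or 3 or any MIN sample (adjusted p from 0.0159 to 0.0283). Cmpk2 stood at 2.58, 1.97 and 1.99 CPM in MIN replicates 1, 2 and 3, at 5.22, 4.50 and 4.13 in adenoma and at 2.13, 1.56 and 1.13 in sulindac. Adenoma was above both other groups, 2.12-fold higher (log2 difference 1.09 ± 0.22 SE, adjusted p = 0.00329) than MIN, and sulindac was 2.86-fold lower (log2 difference -1.52 ± 0.26 SE, adjusted p = 0.00346) than adenoma. The first call was lost without MIN replicate 2 (adjusted p = 0.018) and without adenoma replicate 1 or 2 (0.0154 and 0.0108), and the second without adenoma replicate 1 or 2 (0.0105 and 0.0111) or sulindac replicate 2 or 3 (0.0159 and 0.0156).

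The neighbors thus rose together in adenoma and parted after sulindac. The ratio of Rsad2 to Cmpk2 counts, also chosen after its values were seen, was 0.387, 0.304 and 0.507 in MIN, 0.914, 0.348 and 0.706 in adenoma and 2.17, 1.84 and 3.74 in sulindac. Every sulindac sample was above every adenoma and MIN sample (log2 difference from adenoma 2.02), and adenoma overlapped MIN. No test of this ratio is given either, since it was chosen for its values.

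**Figure D4:**
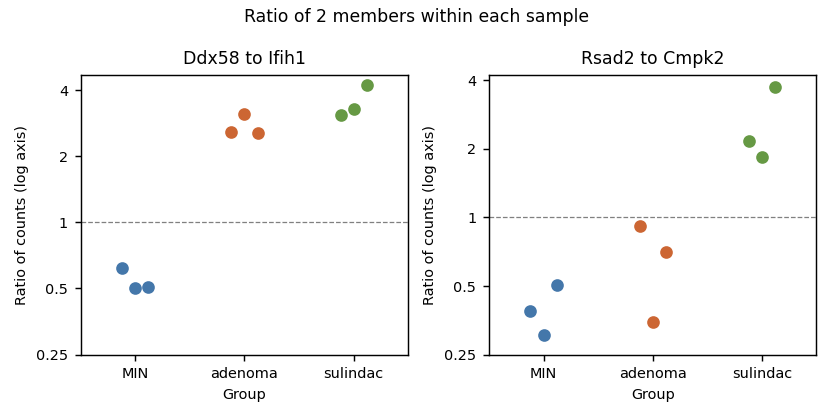
Ratio of Ddx58 to Ifih1 counts (left) and of Rsad2 to Cmpk2 counts (right) in each sample, on a log axis, with a dashed line at a ratio of 1; points are the 3 samples of each group. The left ratio is 0.504 to 0.619 in MIN and 2.55 or more elsewhere, and the right ratio is above 1 in the sulindac samples only.

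Bst2 stood at 13.1, 14.5 and 18.4 CPM in MIN replicates 1, 2 and 3, at 31.6, 34.7 and 50.4 in adenoma and at 38.2, 43.0 and 36.2 in sulindac. The MIN samples lay below all others, and adenoma was 2.54-fold higher (log2 difference 1.34 ± 0.21 SE, adjusted p = 0.000648) and sulindac 2.55-fold higher (log2 difference 1.35 ± 0.14 SE, adjusted p = 4.87e-05) than MIN. From adenoma to sulindac the log2 difference was 0.02 ± 0.17 (SE). Rtp4, a chaperone of cell-surface receptors (11.6% of its 50-base stretches occur elsewhere too), stood at 0.389, 0.363 and 0.300 CPM in MIN replicates 1, 2 and 3, at 2.41, 1.03 and 2.89 in adenoma and at 0.633, 0.917 and 0.116 in sulindac. Adenoma was 5.97-fold higher (log2 difference 2.58 ± 0.43 SE, adjusted p = 0.00106) than MIN, and neither the Bst2 nor the Rtp4 call was lost when a sample was left out. Sulindac samples of Rtp4 were all below adenoma, with a log2 difference of -1.92 ± 0.60 (SE) that missed the threshold (adjusted p = 0.0377).

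Xaf1, which binds and opposes the apoptosis inhibitor XIAP, stood at 0.535, 0.684 and 0.790 CPM in MIN replicates 1, 2 and 3, at 2.25, 1.09 and 3.21 in adenoma and at 1.10, 0.978 and 0.843 in sulindac. Adenoma was 3.26-fold higher (log2 difference 1.70 ± 0.42 SE, adjusted p = 0.00822) than MIN. With the replicate block the adjusted p was 0.0104, and without any MIN sample in turn, or without adenoma replicate 1 or 3, it was 0.0171 to 0.0332. Samd9l, a growth-restraining antiviral factor, stood at 35.1, 32.2 and 49.5 CPM in MIN replicates 1, 2 and 3, at 77.9, 58.6 and 59.9 in adenoma and at 64.9, 41.2 and 54.3 in sulindac. Adenoma was 1.68-fold higher (log2 difference 0.75 ± 0.19 SE, adjusted p = 0.0087) than MIN, with an adjusted p of 0.0114 under the replicate block and 0.012 to 0.0365 without MIN replicate 1 or 2 or any adenoma sample. Lgals3bp stood at 267, 307 and 289.7 CPM in MIN replicates 1, 2 and 3, at 199, 206 and 228 in adenoma and at 207, 201 and 146 in sulindac. Adenoma was 1.36-fold lower (log2 difference -0.45 ± 0.11 SE, adjusted p = 0.00801) and sulindac 1.56-fold lower (log2 difference -0.64 ± 0.14 SE, adjusted p = 0.00302) than MIN. The adenoma call was lost under the replicate block (adjusted p = 0.0116) and without any MIN sample or adenoma replicate 1 or 2 (0.0141 to 0.0419), and the sulindac call without MIN replicate 2 (0.0119).

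Adar, an editor of double-stranded RNA, and Eif2ak2, which encodes the kinase PKR, were abundant and passed in no comparison. Transcripts of other genes hold 14.4% of the 50-base stretches of Adar. Adar was 50.1 ± 3.76 CPM (SD, n = 3) in MIN, 49.2 ± 2.78 in adenoma and 47.2 ± 1.03 in sulindac, and its log2 difference between adenoma and MIN was -0.02 ± 0.11 (SE). Eif2ak2 was 46.6 ± 1.02, 52.9 ± 3.19 and 44.1 ± 4.14 CPM. Ifi35 was at 27.5 CPM on average and also passed nowhere. Mx1 was at 0.363 to 0.748 CPM. Mx2 and Sp100 had at most 12 and 10 counts in any sample, and Ifi44 at most 30.

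In the group of ISG15 conjugation, ubiquitin ligase and PARP genes, 0 of 7 members passed between adenoma and MIN by edgeR, and 0 of 7 between sulindac and adenoma. At an unadjusted p below 0.05, 1 was higher and 2 lower in the first (all genes, 28.3% and 29.6%). In the second 5 were lower (all genes, 24.0%). DESeq2 at an FDR of 1% gave 1 higher and 1 lower in the first (all genes, 21.5% and 23.6%) and 3 lower in the second (all genes, 13.6%). With the replicate block, Usp18, which removes ISG15 and damps the receptor, was higher in adenoma (log2 difference 2.53, adjusted p = 0.00719, against 0.0109 without the block) and Dtx3l lower (-0.58, adjusted p = 0.00863, against 0.0252). Usp18 had 12, 2 and 4 counts in MIN and 29, 15 and 46 in adenoma. It did not pass the count filter between sulindac and MIN. It thus passed here through the adenoma samples, where it was high, and its call is not read as a result. Against MIN, sulindac had lower Parp9, Parp14 and Dtx3l, which lie side by side in RefSeq. DTX3L is a ubiquitin ligase that works as a pair with PARP9, and PARP14 attaches ADP-ribose to proteins. Parp9 stood at 27.0, 27.4 and 20.5 CPM in MIN replicates 1, 2 and 3, at 20.8, 15.0 and 18.5 in adenoma and at 13.4, 10.5 and 9.48 in sulindac, and sulindac was 2.25-fold lower (log2 difference -1.17 ± 0.17 SE, adjusted p = 0.00038) than MIN. Parp14 stood at 14.2, 11.7 and 9.26 CPM in MIN replicates 1, 2 and 3, at 12.5, 7.24 and 7.98 in adenoma and at 5.40, 4.68 and 3.96 in sulindac, and sulindac was 2.52-fold lower (log2 difference -1.33 ± 0.20 SE, adjusted p = 0.000496). Dtx3l stood at 31.3, 33.7 and 22.7 CPM in MIN replicates 1, 2 and 3, at 22.9, 19.1 and 16.4 in adenoma and at 13.3, 13.1 and 11.5 in sulindac, and sulindac was 2.33-fold lower (log2 difference -1.22 ± 0.16 SE, adjusted p = 0.000202). In all 3 genes every sulindac sample was below every MIN and adenoma sample. Of the 50-base stretches of Parp9 and Dtx3l, 7.71% and 8.09% also occur in other genes, in each other more than in any other gene. Against adenoma the adjusted p values were 0.0171, 0.0152 and 0.0148. Isg15, the ubiquitin-like modifier, was 0.823 ± 0.405 CPM in MIN, 1.30 ± 0.496 in adenoma and 0.695 ± 0.256 in sulindac and passed in no comparison. Trim25 was 122 ± 0.406, 113 ± 5.39 and 129 ± 5.64 CPM and passed in none either, nor did Herc6. Cxcl10, a chemokine that draws T cells, had 2 to 16 counts.

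Of the 19 interferon ligand genes listed beside the members, 13 had no count in any of the 9 samples, including Ifnb1, Ifng and all but 1 listed Ifna gene. The highest count among the other 6 was 6, for Ifnz. At these depths a count of 0 allows a level of up to 0.0641 to 0.10 CPM. The listed Ifna genes other than Ifna4 share 12.2% to 67.4% of their 50-base stretches with other genes, so a read from 1 of them could have been given to another.

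The receptors were all expressed. Of the 9 receptor and kinase genes, 2 were higher and 2 lower in adenoma than in MIN (22.2% each, against 18.5% and 20.1% of all genes) and 1 was higher after sulindac (11.1%, against 8.32%), shares close to those of all genes. Ifngr1, a chain of the interferon-gamma receptor, was 190 to 238 CPM in MIN, 39.3 to 55.0 in adenoma and 70.1 to 89.9 in sulindac, so that adenoma was 4.17-fold lower (log2 difference -2.06 ± 0.16 SE, adjusted p = 1.32e-05) than MIN and sulindac 1.63-fold higher (log2 difference 0.71 ± 0.15 SE, adjusted p = 0.00892) than adenoma. The type I receptor chains were higher in adenoma. Ifnar2 was 1.88-fold higher (log2 difference 0.91 ± 0.14 SE, adjusted p = 0.000796), and Ifnar1 was 1.32-fold higher (log2 difference 0.41 ± 0.10 SE, adjusted p = 0.00699), with an adjusted p of 0.0145 under the replicate block. Il10rb, the shared chain of the lambda receptor, was 1.90-fold lower (log2 difference -0.92 ± 0.11 SE, adjusted p = 0.000187).

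Among 12 adaptor, kinase and sensor genes upstream of interferon that could be tested, 3 were higher and 3 lower in adenoma (25.0% each, against 18.5% and 20.1% of all genes), and 2 were lower after sulindac (16.7%, against 9.10%). Tmem173, which encodes STING, the adaptor of the cytoplasmic DNA sensor, was 9.85 to 12.3 CPM in MIN, 56.0 to 76.1 in adenoma and 21.4 to 24.4 in sulindac. Its 3 groups did not overlap, adenoma was 6.21-fold higher (log2 difference 2.63 ± 0.15 SE, adjusted p = 2.36e-06) than MIN, and sulindac was 2.95-fold lower (log2 difference -1.56 ± 0.13 SE, adjusted p = 0.000151) than adenoma. Aim2, the DNA sensor of an inflammasome, was 2.59-fold higher (log2 difference 1.37 ± 0.24 SE, adjusted p = 0.00125) in adenoma than in MIN. Mavs, the adaptor through which both RIG-I and MDA5 signal, was 1.52-fold lower (log2 difference -0.61 ± 0.10 SE, adjusted p = 0.00107), and Ticam1, the adaptor of TLR3, was 2.10-fold lower (log2 difference -1.07 ± 0.15 SE, adjusted p = 0.000354).

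**Figure D5:**
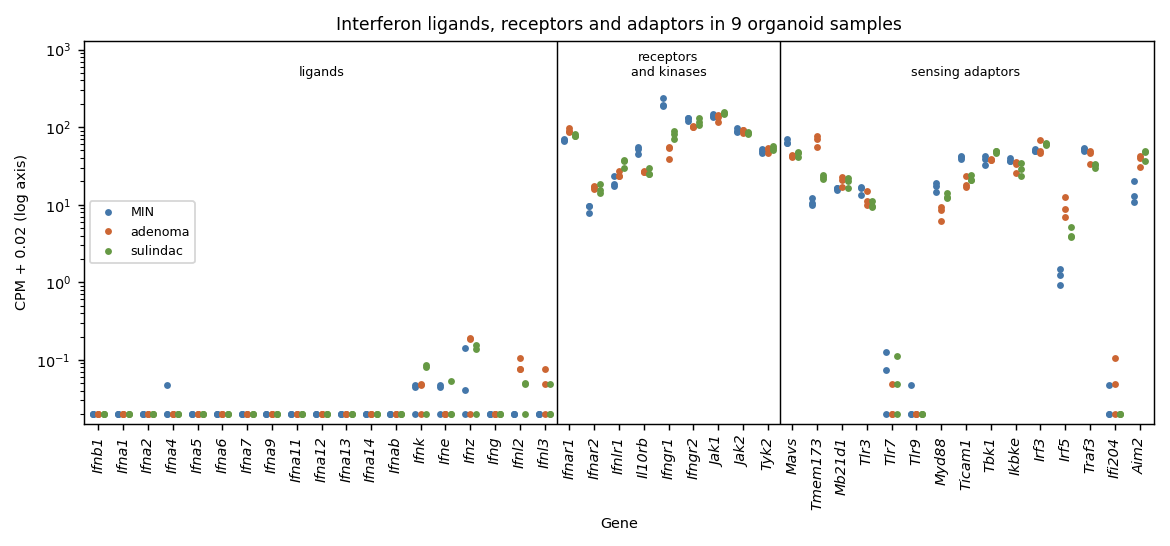
Level of the listed interferon ligands, receptors with their kinases, and sensing adaptors in each of the 9 samples, as CPM + 0.02 on a log axis, colored by group. The ligands lie at or near the bottom of the axis, the receptors and kinases lie between 7.83 and 238 CPM, and Tmem173 separates into 3 groups.

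Of 9 negative regulators tested, 3 were higher and 2 lower in adenoma than in MIN (33.3% and 22.2%, against 18.5% and 20.1% of all genes), and 2 were lower after sulindac (22.2%, against 9.10%). Samhd1, which breaks down nucleotides and restrains interferon induction, was 49.6 to 67.8 CPM in MIN, 19.1 to 21.1 in adenoma and 8.49 to 11.4 in sulindac, so that adenoma was 2.95-fold lower (log2 difference -1.56 ± 0.14 SE, adjusted p = 2.4e-05) than MIN and sulindac 1.94-fold lower (log2 difference -0.95 ± 0.14 SE, adjusted p = 0.00188) than adenoma. Ptpn2, a tyrosine phosphatase, was 1.58-fold lower (log2 difference -0.66 ± 0.11 SE, adjusted p = 0.000853) in adenoma. Pias1 was 1.61-fold higher (log2 difference 0.68 ± 0.11 SE, adjusted p = 0.000731), and Ptpn6 was 1.65-fold higher (log2 difference 0.73 ± 0.14 SE, adjusted p = 0.00229).

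A further list of 47 interferon-stimulated genes, of which 45 had a row, gave 4 higher and 8 lower of 38 tested in adenoma against MIN (10.5% and 21.1%, against 18.5% and 20.1% of all genes). After sulindac 3 were higher and 6 lower of 35 tested (8.57% and 17.1%, against 8.32% and 9.10%). Under the replicate block 1 was higher and 5 were lower (of all 12962 genes tested, 872 and 1061). The median log2 difference was -0.33, against -0.01 for all genes tested. Of the genes called, those with the highest mean CPM are named next, whatever their direction. Ifi30, a lysosomal thiol reductase, was 5.63-fold lower (log2 difference -2.49 ± 0.16 SE, adjusted p = 4.26e-06) in adenoma than in MIN and 2.03-fold higher (log2 difference 1.02 ± 0.17 SE, adjusted p = 0.00273) in sulindac than in adenoma. Pnpt1 and Ifi27l2b were 1.40-fold lower (log2 difference -0.48 ± 0.11 SE, adjusted p = 0.0055) and 2.59-fold lower (log2 difference -1.37 ± 0.24 SE, adjusted p = 0.00127) in adenoma, and Tdrd7 was 1.39-fold higher (log2 difference 0.47 ± 0.10 SE, adjusted p = 0.00882) in sulindac than in adenoma.

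The epithelial label was checked against markers. The summed level of 8 intestinal epithelial markers was 5142 to 6958 CPM in MIN, 3148 to 3919 in adenoma and 4126 to 4821 in sulindac. Of the 8, 6 were lower in adenoma than in MIN (75%, against 20.1% of all genes), including the differentiation keratin Krt20. Krt18 went the other way, with a mean of 551 CPM in MIN and 921 in adenoma. It did not pass by edgeR (adjusted p = 0.0249) but did under the replicate block (adjusted p = 0.00271) and by DESeq2 (adjusted p = 0.00408). After sulindac 2 of the 8 were higher than in adenoma (25%, against 8.32% of all genes) and 0 were lower. The 13 leukocyte markers summed to 5.09 to 6.81 CPM in MIN, 8.49 to 16.8 in adenoma and 3.27 to 4.37 in sulindac. Of these, 3 could be tested between adenoma and MIN, and Cd68 was higher in adenoma. Itgam and Lyz2 were lower (Lyz2 had 17, 23 and 13 counts in MIN and 0, 1 and 0 in adenoma). Both passed the count filter through the MIN samples, where they were high, so their calls are not read as results. Emr1, Ncr1 and Tyrobp were at 0 in all samples, and Ptprc, the pan-leukocyte gene, had 0 to 1 counts in MIN, 4 to 8 in adenoma and 0 in sulindac. Most of the adenoma sum was Cd68, a lysosomal gene also found outside macrophages, with 284 to 560 counts in adenoma. The 7 mesenchymal and endothelial markers summed to 4.28 to 4.71 CPM in MIN, 1.99 to 2.37 in adenoma and 0.825 to 1.08 in sulindac, and the groups did not overlap. Of the 4 that were tested between adenoma and MIN, Pdgfrb (143, 176 and 127 counts in MIN and 1, 0 and 0 in adenoma) and Pecam1 were lower and Pdgfra was higher. Each passed the count filter through the group where it was high, so these calls are not read as results. Col1a2 and Col3a1 were at 0 in all samples. The part of these shifts in the results above was not tested, and in bulk samples fewer cells of a type and less RNA per cell cannot be told apart.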

How the data were processed

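RNA-seq was performed on 9 organoid samples (3 MIN, 3 adenoma, 3 sulindac). The authors deposited raw counts per gene symbol, and the submitters' processing notes name RSEM, Bowtie2 2.2.4 and the mm9 build. The gene annotation and strandedness are not given in the sources used here, so reads of overlapping genes may be shared. MIN replicate 1 had 2 runs, and the deposited column of their sum was used. In 27 rows the symbol reads as a date. Total counts per sample were 30881206 to 48412477.

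The counts were tested with edgeR 4.0.16 (R 4.3.3; limma 3.58.1) by the quasi-likelihood F test with filterByExpr, TMM factors and only the groups compared in the fit. P-values were adjusted by Benjamini-Hochberg over all genes tested, and genes were called at an FDR of 1%. The SE is the log2 difference divided by the square root of F. The code was tested on simulated data. DESeq2 1.42.0, other scalings, filters, an FDR of 5%, all 9 samples in 1 fit, a replicate block and leaving out each sample were the alternatives. Deviations from the group means in samples with the same number, as given in the sample titles, correlated at 0.126, 0.113 and 0.192 between adenoma and MIN. These numbers were therefore taken to pair the samples in the replicate block. The main fit and DESeq2 ignored this pairing, so the member calls that the block changed are named in the results. In each of the other comparisons 1 pair was below 0.1, and the other pairs were at 0.208 to 0.396.

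The 40 genes and all gene lists were chosen with earlier results of these data known. Values in every sample are given for genes called in at least 1 comparison and means for the 3 most abundant others. From each list of other genes up to 4 are named, those called in adenoma versus MIN or sulindac versus adenoma with the highest mean CPM. 1 listed item is not reported here. Other genes named without a call were chosen after their values were seen. Exon lengths and shared 50-base stretches came from GENCODE, and promoter windows and neighboring genes from RefSeq (GRCm38.p6). No coordinate was taken from the count table.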

Additional observations from a re-analysis of the deposited data

How the results depend on the processing

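The 26 single-gene calls were refitted under 7 alternatives, giving 182 values. Of these, 176 kept their call and 6 did not, and 0 turned direction. Leaving out 1 sample at a time gave 156 further values, of which 37 lost the call and 0 turned direction. The cause was not tested. The members lower in adenoma than in MIN numbered 5 with DESeq2 and 6 at an FDR of 5%. On leaving out 1 sample, 4 to 9 were higher and 2 to 4 lower. The members lower after sulindac than in adenoma numbered 6 with library size alone, 4 without the count filter, 9 with DESeq2 and 12 at an FDR of 5%, and 0 to 4 on leaving out 1 sample. Higher members numbered 1 without the filter, 1 with all 9 samples in 1 fit, 1 with DESeq2 and 1 at an FDR of 5%, and 0 to 1 on leaving out 1 sample. Between sulindac and MIN, 4 were higher and 8 to 9 lower on leaving out 1 sample. Over all genes DESeq2 gave 23.6% lower in adenoma than in MIN, and 13.6% lower and 13.7% higher after sulindac. Shares of all genes under the other settings of this paragraph are not given here, so its counts are not read as results about the members.

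With the replicate block, 4 members were lower after sulindac than in adenoma (of all 12962 genes tested, 1061), with Parp9 (adjusted p = 0.00964) and Parp14 (adjusted p = 0.00682) added by edgeR. Against MIN, 4 were higher and 9 lower after sulindac (of all 13551 genes tested, 3280 and 3791). Deviations of same-numbered samples (replicates 1, 2 and 3) correlated at 0.253, 0.208 and -0.074 between sulindac and adenoma. Between sulindac and MIN they correlated at -0.0303, 0.396 and 0.252. The titles give only a number, so whether these samples are paired is not settled. Members with few counts, such as Zbp1, Mx2 and Oas2, are limited by depth.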

Other observations

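A list of 20 interferon-inducible GTPases and other genes induced mainly by interferon-gamma had few counts, with 7 tested between adenoma and MIN and 6 between sulindac and adenoma. These GTPases attack the membranes around intracellular pathogens. Gbp7 had 24, 11 and 12 counts in adenoma and 3, 4 and 0 in sulindac, and Gbp9 had 33, 21 and 17 and then 4, 4 and 2, so these passed the filter through the adenoma samples, where they were high, and no count over the list is read. Gbp8, a guanylate-binding protein, had 0, 0 and 2 counts in MIN, 175, 132 and 157 in adenoma and 116, 80 and 87 in sulindac. The MIN samples were all below the others. Of its 50-base stretches, 18.1% are shared, mainly with Gbp11, which had at most 1 count.

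Irgm1, a regulator of the family, stood at 24.0, 23.4 and 16.1 CPM in MIN, 19.2, 16.5 and 19.2 in adenoma and 9.70, 11.8 and 8.23 in sulindac. Every sulindac sample was below every adenoma sample (log2 difference -0.88 ± 0.15 (SE), edgeR adjusted p = 0.00331). Irgm2 was also lower after sulindac (log2 difference -1.59 ± 0.25 (SE), adjusted p = 0.00214). Cxcl11, a chemokine, had 43, 23 and 33 counts in MIN, 2, 0 and 0 in adenoma and 1, 2 and 0 in sulindac, and 40.4% of its 50-base stretches are shared, mainly with Gm2673.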
